A study of Bos taurus with 30 samples.

Results

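Chromatin accessibility was compared between bovine morulae and the inner cell mass (ICM) of blastocysts, using the peak lists of the 3 morula and 3 ICM control libraries, which are 6 of the 30 libraries of the series. They were chosen by their labelled stage and treatment alone. In ATAC-seq a transposase inserts adapters where DNA is accessible, and peaks are called where insertions exceed what the surroundings in that library would give. The series also covers germinal vesicle (GV) oocytes, cleavage-stage embryos with and without the transcription inhibitor α-amanitin, and cultured embryonic stem cell (ESC) lines derived from ICM. The lists of GV oocytes, of 8-cell embryos cultured without α-amanitin and of ESC are used below as reference points.

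All 6 libraries came from embryos made in vitro by fertilizing matured oocytes with frozen semen from a Holstein bull, and none had been cultured with α-amanitin. Morulae were collected at 5 days after insemination. ICMs came from blastocysts at 7 days, from which the outer cells had been lysed by immunosurgery with anti-bovine serum and complement, followed by brief trypsin treatment. Morulae were whole embryos, inner and outer cells together, freed of the zona pellucida and vortexed in lysis buffer. Each library was a pool of at least 500 cells according to the general protocol, and the 3 libraries of a stage came from separate collections. The handling differed together with the stage, so stage and handling cannot be told apart, and the sexes of the pooled embryos are not given in the sources used here. Without an annotation of the build of the lists, the ICM label could not be checked against the marker genes of epiblast, hypoblast and trophectoderm, and regions are described by position only.

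At the morula stage the blastomeres compact, flatten against each other and begin to differ in polarity. Outer cells then become trophectoderm, which forms the placenta, while inner cells form the ICM, which later divides into the epiblast, the source of the embryo proper, and the hypoblast, which lines the yolk sac. Accessible regions in early embryos include promoters and enhancers, and enhancers in particular tend to open and close with cell fate.

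ICM libraries had fewer and more widely spaced peaks than morula libraries. The morula lists held 142231, 207459 and 171670 peaks in replicates 1, 2 and 3, and the ICM lists held 84773, 93484 and 116791. The longest ICM list was thus shorter than the shortest morula list, and the ICM mean was 0.566 times the morula mean (exact two-sided permutation test, p = 0.1). With 3 libraries against 3, a p of 0.1 is the smallest that this test can give, so differences are described below by whether the 2 groups of libraries overlapped. Peaks covered 72.3, 121 and 98.7 Mb in morulae against 42.8, 45.4 and 65.2 Mb in ICMs, again without overlap (exact permutation p = 0.1). The median gap from one peak to the next was 10519, 7377 and 8071 bp in morulae and 14379, 16028 and 11234 bp in ICMs. Gaps were therefore longer in every ICM library (1.60 times as long on average, exact permutation p = 0.1), and 17.2% ± 4.51 (SD, n = 3) of ICM peaks lay within 5 kb of the next peak, against 29.7% ± 5.77 (n = 3) of morula peaks.

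Background levels of the 2 stages overlapped. The number of reads is not stated in the lists, but a background level, the number of tags expected by chance at a base of the library, could be solved from the fold enrichment and −log10 p of peaks. It was 0.452, 0.927 and 0.716 tags in the morula libraries and 0.493, 0.438 and 1.06 tags in the ICM libraries, summing to 2.095 in morulae and 1.99 in ICMs. Morula replicate 1, one of the shallow libraries, had more peaks than ICM replicate 3, the deepest library. Within each of these 2 stages the deepest library had the longest list, although ICM replicate 2 had a lower level and more peaks than ICM replicate 1. The part of depth in the difference in peak numbers was not tested.

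**Figure D1:**
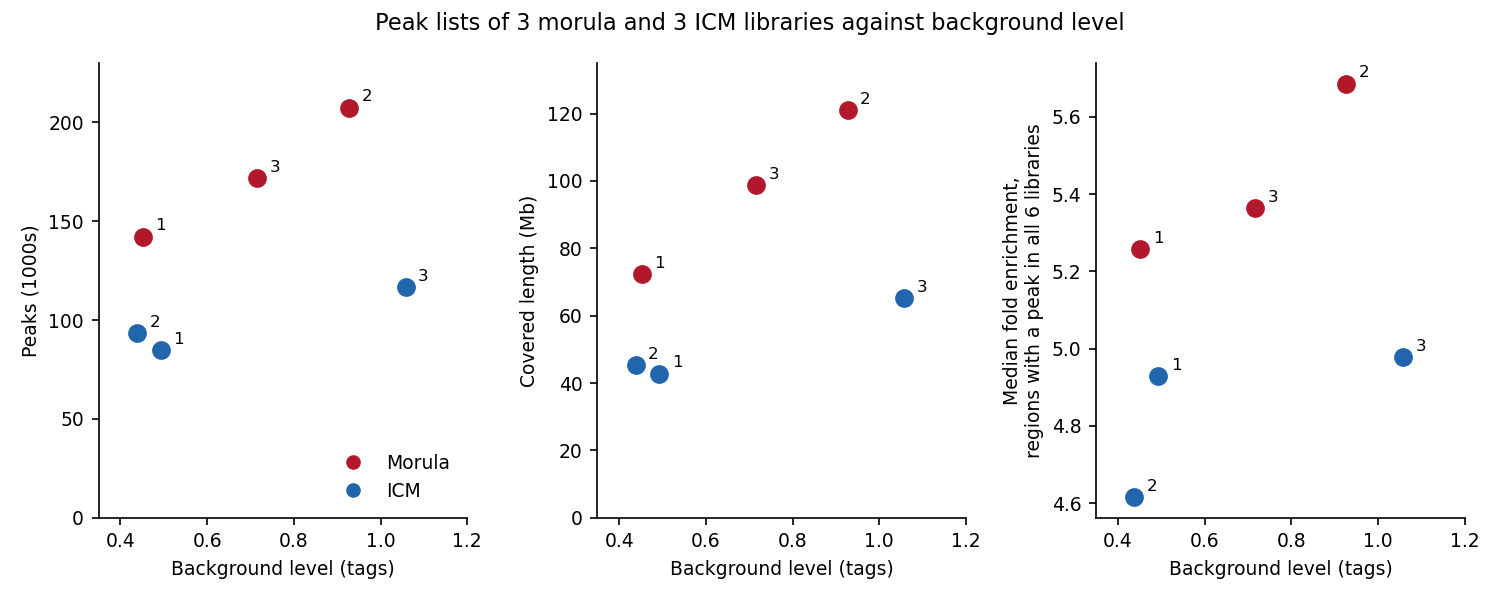
Number of peaks, covered length in Mb and median fold enrichment at regions with a peak in all 6 libraries, each plotted against the background level in tags. Points are single libraries, red for morula and blue for ICM, with the replicate number beside each. In all 3 panels the morula points lie above the ICM points, over background levels from 0.438 to 1.06.

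Peak widths did not separate the stages. Median widths were 348, 392 and 383 bp in morulae and 353, 349 and 397 bp in ICMs, and the libraries were interleaved (exact permutation p = 1). Peaks wider than 1 kb made up 11.4%, 16.1% and 15.7% of the morula lists and 10.5%, 9.03% and 13.4% of the ICM lists, with ICM replicate 3 above morula replicate 1 (exact permutation p = 0.2). Fold enrichment is the ratio of tags to the local background, with 1 added to both, averaged over a peak. It is therefore smaller than a plain ratio of tags, by an amount that varies with depth. Over whole lists its median was 4.25, 4.12 and 4.34 in morulae and 4.38, 3.88 and 4.00 in ICMs. These values overlapped (exact permutation p = 0.5), as did median −log10 p (5.91 ± 0.300 in morulae and 5.55 ± 0.609 in ICMs, SD, n = 3, exact permutation p = 0.5) and median −log10 q (3.99 ± 0.363 and 3.36 ± 0.645, exact permutation p = 0.3). Medians over lists of unequal length compare different parts of the lists, however. When each library was limited to its 84773 peaks of highest −log10 p, the length of the shortest list, median fold enrichment was 5.14, 5.71 and 5.46 in morulae and 4.38, 4.02 and 4.50 in ICMs, without overlap (exact permutation p = 0.1). This cut left the list of ICM replicate 1 whole and took more of the weak peaks from the longer morula lists. The separation is therefore not independent of the difference in numbers of peaks. In these equal lists the covered lengths overlapped, at 46.4, 57.2 and 53.8 Mb in morulae and 42.8, 41.0 and 48.2 Mb in ICMs (exact permutation p = 0.2), and so did the spacing, with an ICM gap 0.943 times that of morulae (exact permutation p = 0.4).

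At the same places in the genome, enrichment was higher in morulae. The 6 lists merged into 287432 regions, of which 43899 held a peak in every library. Median fold enrichment over these common regions was 5.26, 5.69 and 5.36 in the morula libraries and 4.93, 4.62 and 4.98 in the ICM libraries. Every morula library was above every ICM library, and the ICM mean was 0.891 times that of morulae (exact permutation p = 0.1). In pools of cells, a lower enrichment from fewer cells with the region open and from less opening in each cell cannot be told apart. Among the libraries of lowest background level the value was 5.26 in morula replicate 1 and 4.93 and 4.62 in ICM replicates 1 and 2, and the part of depth was not tested. Peaks at the common regions were 533 to 765 bp wide at the median in morulae and 454 to 588 bp in ICMs, which overlapped (exact permutation p = 0.2). The −log10 p at common regions, which grows with depth, also overlapped, at 10.4 ± 2.00 in morulae and 7.79 ± 1.53 in ICMs (exact permutation p = 0.2).

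The strongest common regions had like values in both stages. The 3 regions of highest mean fold enrichment over the 6 libraries, picked out after their values had been seen, lay at chr6:109018587-109018962, chr1:6042789-6043220 and chr17:5546494-5546985 of ARS-UCD1.2. At the first, fold enrichment was 17.6, 18.6 and 20.3 in morulae and 19.1, 18.8 and 18.4 in ICMs, and the means at the others were 18.2 and 18.3, and 17.3 and 17.3. Since both stages entered the choice, regions high in only 1 of them were left out by it. All 3 regions also held peaks in every GV, 8-cell and ESC library.

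Single common regions were then tested with limma on log2 fold enrichment, after centring each library on its median so that the general difference in level was taken out. In ICMs 1468 regions, 3.34% of the 43899 tested, were higher and 1664, 3.79%, were lower at a Benjamini-Hochberg adjusted p of 0.05, together 7.13%. Without centring, the median region was lower in ICMs by a log2 difference of -0.15, and the same test called 522 regions (1.19%) higher and 4004 (9.12%) lower, so the balance of directions depended on whether the general level was kept. Higher regions then made up 11.5% of the calls, against 46.9% with centring, and 2186 regions were called both ways. The counts also changed when single libraries were left out, which leaves fewer libraries for the test and changes the regions tested. They fell to 812 higher and 771 lower without morula replicate 2, 606 and 715 without morula replicate 3, 458 and 737 without ICM replicate 2, and 386 and 573 without ICM replicate 3. Without morula replicate 1 they were 1314 and 1524, and without ICM replicate 1 they rose to 1731 and 1917. Among the centred calls the median log2 difference was 0.69 for higher and -0.72 for lower regions.

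The 5 common regions with the largest increase lay on chromosomes 7, 2, 13, 4 and 7. At chr7:71892087-71893347, fold enrichment was 3.04, 3.08 and 2.99 in the morula libraries and 6.68, 7.28 and 8.89 in the ICM libraries. The 2 groups were far apart, with a log2 difference of 1.48 ± 0.15 (SE, limma, adjusted p = 0.00343). At chr2:13831075-13831543 the ICM libraries were spread more widely, with 4.26, 3.84 and 4.20 in morulae and 6.77, 9.91 and 12.8 in ICMs (log2 difference 1.38 ± 0.21, limma adjusted p = 0.0051). Mean fold enrichment rose from 3.06 to 7.07 at chr13:17389725-17390618, from 3.92 to 8.94 at chr4:73954781-73955196 and from 3.16 to 7.03 at chr7:3718111-3719032 (limma adjusted p = 0.00343 for each). The last 2 held no peak in any GV, 8-cell or ESC library, while the region at chr7:71892087-71893347 held one in all 3 8-cell and in 2 ESC libraries, and no GV library had a peak at any of the 5.

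The 5 largest decreases were at sites already accessible at the 8-cell stage. At chr2:46353735-46354804, fold enrichment was 10.3, 9.04 and 9.76 in morulae and 3.57, 3.30 and 3.10 in ICMs. The ICM libraries lay close together and far below the morula libraries (log2 difference -1.38 ± 0.15, limma adjusted p = 0.00343). At chr1:68572396-68573129 the values were 9.95, 10.4 and 9.22 against 4.14, 3.41 and 2.84 (log2 difference -1.36 ± 0.17, limma adjusted p = 0.00343). Mean fold enrichment was 11.4 in morulae and 4.12 in ICMs at chr20:5163822-5164746, 8.78 and 3.20 at chr1:39444183-39444926, and 12.0 and 4.38 at chr23:49153241-49154714 (limma adjusted p = 0.00343 for each). Each of the 5 held a peak in all 3 8-cell libraries, with a mean 8-cell fold enrichment of at least 5.65. Such a peak was common, since an 8-cell library had one at 70.9% of all common regions on average and at 80.5% of those called lower. All 10 of these increases and decreases were called in the same direction without centring.

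More regions were lost than gained from morula to ICM. Regions of a stage were defined as merged peaks with at least 2 of its 3 libraries, which gave 161497 morula and 84396 ICM regions. Of the ICM regions 69254, or 82.1%, shared at least 1 bp with a morula region, and 15142, or 17.9%, were gained. Of the morula regions 92551, or 57.3%, shared no base with an ICM region and were counted as lost. A lost region can still hold a peak in 1 ICM library, as did 15160 of the merged regions with peaks in all 3 morula libraries and 8513 of those with peaks in 2. These counts depend on single libraries, since with 1 library removed a region needs both of those that remain. Gained regions numbered 24747 without morula replicate 2, 23087 without morula replicate 3, 8003 without ICM replicate 2 and 5693 without ICM replicate 3, and lost regions 57730 and 61319 without morula replicates 2 and 3. They also depend on list length. In the equal lists 27960 of 75493 ICM regions (37.0%) were gained and 33202 of 80376 morula regions (41.3%) were lost.

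Libraries of a single stage also differ from each other, so regions were made from 2 libraries of a stage and then looked for in the held-out library and in the libraries of the other stage. Morula regions held a peak in 76.8%, 95.4% and 91.3% of cases in the held-out morula replicates 1, 2 and 3, but in 48.3%, 45.9% and 52.9% in ICM replicates 1, 2 and 3. No ICM library came near a morula library, and the means differed by 38.8 percentage points (exact permutation p = 0.1). ICM regions held a peak in 78.8%, 80.4% and 93.2% of cases in held-out ICM libraries and in 79.5%, 91.5% and 85.8% in morula libraries. These values overlapped, with means of 84.1% in held-out ICM libraries and 85.6% in morula libraries (exact permutation p = 0.9).

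List length bore on this asymmetry. In equal lists, morula regions were found in 87.0% ± 2.15 of cases in held-out morula libraries and 63.3% ± 3.02 in ICM libraries, a difference of 23.8 points (SD, n = 3, exact permutation p = 0.1). ICM regions were found in 85.0% ± 2.86 of cases in held-out ICM libraries and 68.6% ± 2.36 in morula libraries, so that the other stage now fell short by 16.4 points (exact permutation p = 0.1). The equal lists kept every peak of ICM replicate 1 and dropped more morula than ICM peaks. In them the difference between stages ran in both directions, whereas in full lists most ICM regions held a morula peak.

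**Figure D2:**
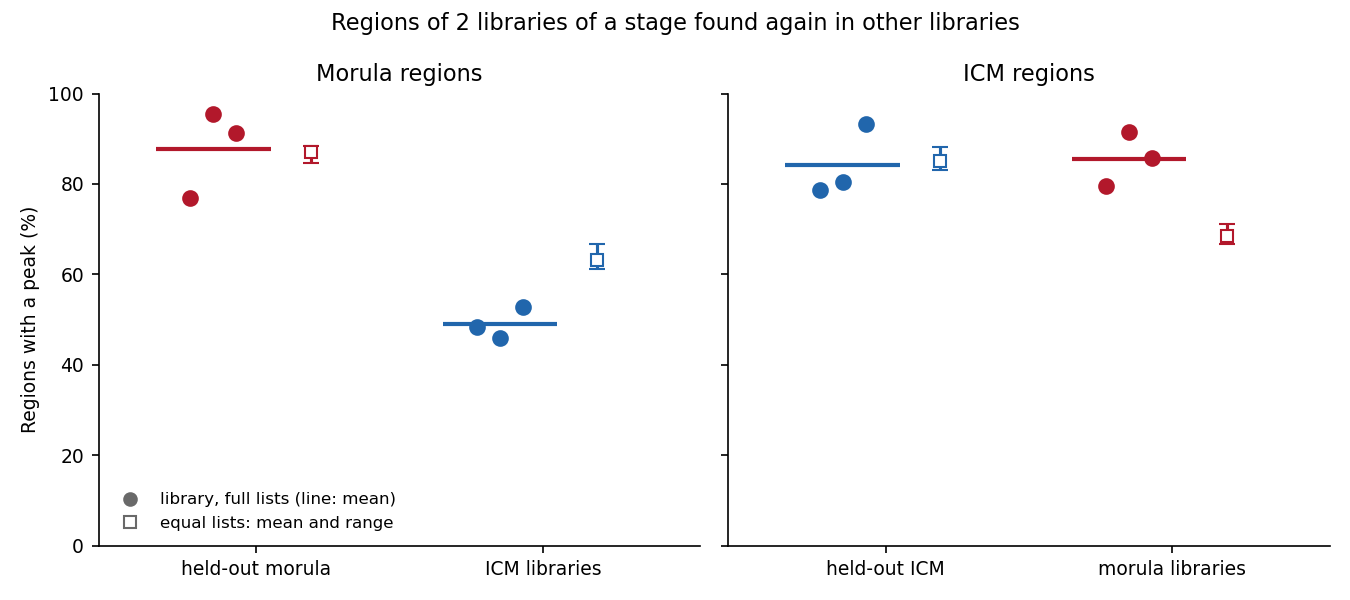
Percentage of regions made from 2 libraries of a stage that held a peak in the held-out library of that stage and in the libraries of the other stage, for morula regions (left) and ICM regions (right). Circles are single libraries with full lists and lines their means, and squares with bars give the mean and range of the 3 libraries when every list was limited to 84773 peaks. Full ICM lists held 45.9% to 52.9% of morula regions, while full morula lists held 79.5% to 91.5% of ICM regions.

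Stronger morula regions were found in ICMs more often. In the lowest quartile of morula fold enrichment 72.6% ± 17.4 (SD, n = 3) of regions had a peak in the held-out morula library and 30.7% ± 4.90 in the ICM libraries, and in the highest quartile 98.8% ± 1.72 and 70.3% ± 2.02. The gap between stages was therefore present in each quartile, without overlap of libraries in any of the 4 (exact permutation p = 0.1 for each).

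Morula regions that were also accessible in GV oocytes or in ESC were mostly kept in ICMs. Of morula regions overlapping a GV region, 85.5% ± 4.60 had a peak in an ICM library, against 41.4% ± 3.38 of those without a GV region. In the held-out morula libraries the corresponding shares were 96.2% ± 4.21 and 86.1% ± 10.8. Having a GV region thus added 44.1 points in ICM libraries, from 41.8 to 46.4, and 10.1 points in held-out morula libraries, from 4.98 to 17.5, and the 2 ranges did not overlap (exact permutation p = 0.1). The same held among regions of the highest quartile of fold enrichment, with 33.6 points in ICM libraries and 1.06 in morula libraries, and in equal lists, with 37.8 and 10.1 points (exact permutation p = 0.1 for both). However, held-out morula libraries already held a peak at most regions without a GV region. The shares were 86.1% over all regions, 84.4% in equal lists and 98.5% in that quartile. The room left above these shares was smaller than the points added in ICM libraries. The lack of overlap was thus set by this ceiling and cannot show that GV presence matters more in ICMs. Regions overlapping an ESC region behaved alike, with ICM peaks at 76.9% ± 4.40 of them and at 37.6% ± 3.15 of the others. ESC presence added 39.4 points in ICM libraries and 7.88 points in held-out morula libraries, without overlap (exact permutation p = 0.1). The same ceiling applied, since held-out morula libraries held a peak at 85.6% of regions without an ESC region.

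The contrast by 8-cell region, the stage nearest before the morula among those compared, was smaller. ICM peaks were found at 55.3% ± 3.29 of morula regions with an 8-cell region and at 40.7% ± 3.80 of those without. The difference was 14.6 points in ICM libraries and 12.7 points in held-out morula libraries, and the libraries overlapped (exact permutation p = 0.7). In the highest quartile of fold enrichment it was 8.18 points in ICM libraries, from 6.50 to 9.09, and 1.82 points in held-out morula libraries, from 0.124 to 4.82, without overlap (exact permutation p = 0.1). There 97.5% of regions without an 8-cell region already held a peak in held-out morula libraries, which left little room for a difference. In the lowest quartile the means ran the other way, with 4.37 points in ICM libraries and 13.8 points in held-out morula libraries. These overlapped (exact permutation p = 0.4). Combining both stages, 89.2% of the 20421 morula regions with GV and 8-cell regions were shared with an ICM region, against 38.9% of the 62710 with an 8-cell region only. The 3555 with a GV region only had 54.0% shared and the 74811 with neither 32.7%. GV and ESC lists came from shallower libraries than the 8-cell lists, with summed background levels of 1.00, 1.24 and 2.93 tags, and the part of depth in these contrasts was not tested.

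**Figure D3:**
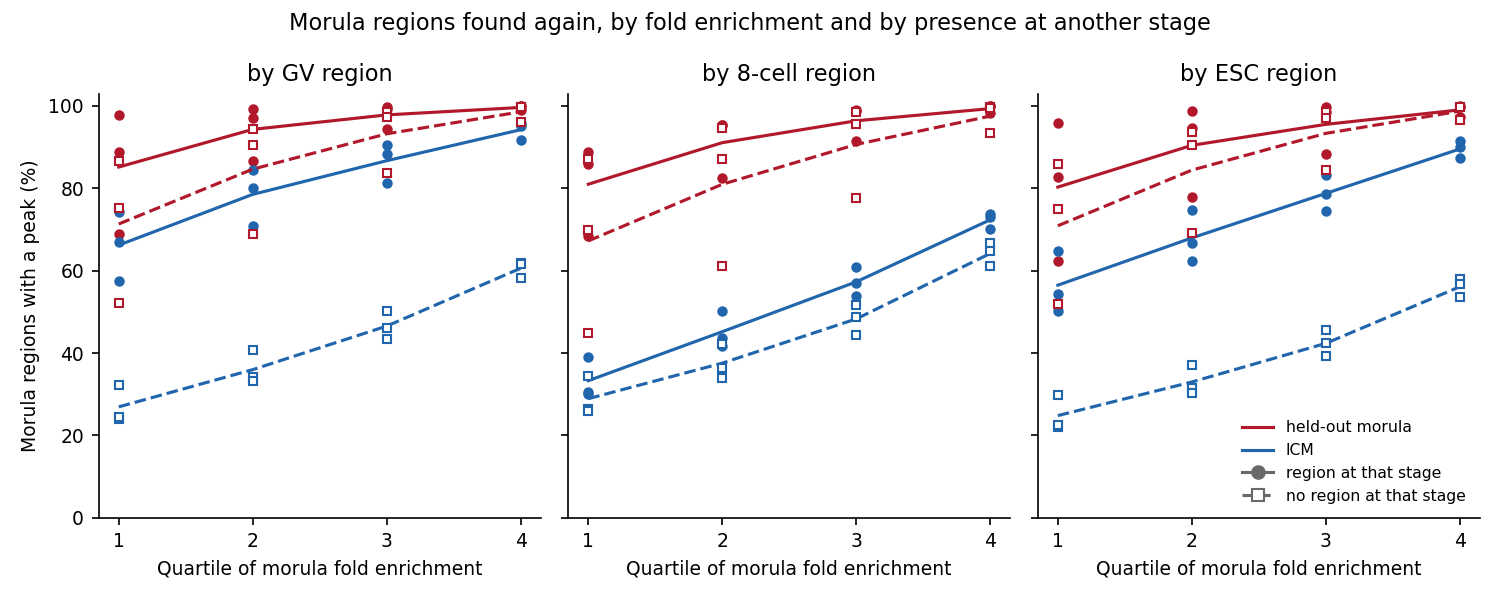
Percentage of morula regions with a peak in held-out morula libraries (red) and in ICM libraries (blue), by quartile of morula fold enrichment from lowest (1) to highest (4). Filled circles and solid lines stand for regions that overlapped a GV (left), 8-cell (middle) or ESC region (right), and open squares and dashed lines for those that did not, with single libraries as points and means as lines. In the highest quartile ICM peaks covered 94.2% of regions with a GV region and 60.6% of those without.

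For ICM regions presence in morula libraries was examined in the same way. With an 8-cell region, 96.9% ± 2.34 had a peak in a morula library, and without one 71.1% ± 10.9, against 90.0% ± 4.97 and 76.8% ± 11.7 in held-out ICM libraries. The difference by 8-cell region was 25.8 points in morula libraries and 13.2 points in ICM libraries and overlapped in full lists (exact permutation p = 0.2). In the highest quartile of ICM fold enrichment it was 15.7 and 2.62 points, and in equal lists 40.6 and 12.3 points, both without overlap (exact permutation p = 0.1). Without an 8-cell region, 96.1% of regions in that quartile and 77.8% in equal lists already held a peak in held-out ICM libraries. On average this left less room than the difference seen in morula libraries. GV and ESC regions also made a larger difference in morula than in held-out ICM libraries in equal lists, with 24.8 and 13.2 points for GV and 21.1 and 11.3 points for ESC, without overlap (exact permutation p = 0.1). In full lists these overlapped (exact permutation p = 0.9 for GV and 0.6 for ESC), although for ESC the highest quartile did not, with 7.73 and 1.94 points (exact permutation p = 0.1). There too, 96.8% of regions without an ESC region already held a peak in held-out ICM libraries. In equal lists this share was 79.7%, and it was 80.9% for regions without a GV region, which also limited the differences in ICM libraries.

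Regions at the extremes were those with a peak in all 3 libraries of a stage and in none of the other. Only 2191 regions, or 0.762% of the 287432 merged regions, were ICM only, and 37019, or 12.9%, were morula only. In equal lists the counts were 7818 and 11974. Requiring fewer libraries raised them, to 4377 ICM-only regions without morula replicate 2, 6456 without ICM replicate 1 and 3862 without ICM replicate 2, and to 57244 morula-only regions without morula replicate 1. Median fold enrichment was 4.09, 4.04 and 4.63 at ICM-only regions in ICM replicates 1, 2 and 3, and 4.18, 4.43 and 4.46 at morula-only regions in morula replicates 1, 2 and 3. Both were below the medians at common regions in the same libraries.

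The 5 strongest ICM-only regions reached fold enrichments of about 8. At chr14:48242762-48243165 the values were 7.06, 9.31 and 8.58 in ICM replicates 1, 2 and 3, and no GV, 8-cell or ESC library had a peak there. At chr6:11964090-11964508 they were 6.93, 7.21 and 10.4, again with no peak at those 3 stages. The regions at chr10:57518806-57519284, chr12:18019349-18019736 and chr9:34217401-34217975 had mean fold enrichments of 7.97, 7.97 and 7.95 and a peak in 1 ESC library each. The last 2 also had peaks in 2 GV libraries. No peak was listed for any of the 5 in an 8-cell library.

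The 5 strongest morula-only regions had higher values and were all present at the 8-cell stage. They were picked from 37019 regions, against 2191 for ICM-only regions, and extremes rise with the size of a group. The medians of the 2 whole groups overlapped, as given above. Fold enrichment at chr1:64559180-64559571 was 12.0, 13.7 and 12.8 in morula replicates 1, 2 and 3, and 11.5 on average in the 8-cell libraries. At chr2:107303788-107304157 it was 10.8, 14.6 and 12.0, with an 8-cell mean of 9.99. An X-linked region at chrX:97351756-97352179 had 11.3, 12.2 and 11.8 and an 8-cell mean of 9.83. The regions at chr1:155416338-155416730 and chr2:91291767-91292101 averaged 11.4 each in morulae, with 8-cell means of 5.14 and 4.66. All 5 held a peak in each of the 3 8-cell libraries and in none of the ICM libraries.

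The contrast in 8-cell presence extended to the groups as a whole. Of the morula-only regions 53.2%, 51.1% and 62.2% had a peak in 8-cell replicates 1, 2 and 3, but 3.44%, 3.99% and 4.46% in GV oocytes and 3.70%, 17.1% and 11.2% in ESC. Of the ICM-only regions 7.07%, 10.7% and 7.67% had a peak at the 8-cell stage, 8.95%, 9.17% and 8.90% in GV oocytes and 7.53%, 25.5% and 18.9% in ESC. In GV oocytes and in each ESC library the share was thus higher for ICM-only than for morula-only regions, while at the 8-cell stage it was far lower. Among all 43899 common regions the mean shares were 70.9% at the 8-cell stage, 38.5% in GV oocytes and 51.6% in ESC. Common regions that were lower in ICMs had an 8-cell peak in 80.5% ± 3.26 of cases and those that were higher in 44.4% ± 2.38 (SD over 3 8-cell libraries), whereas GV shares were alike, at 23.2% and 22.1%. These shares describe the lists and were not tested.

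**Figure D4:**
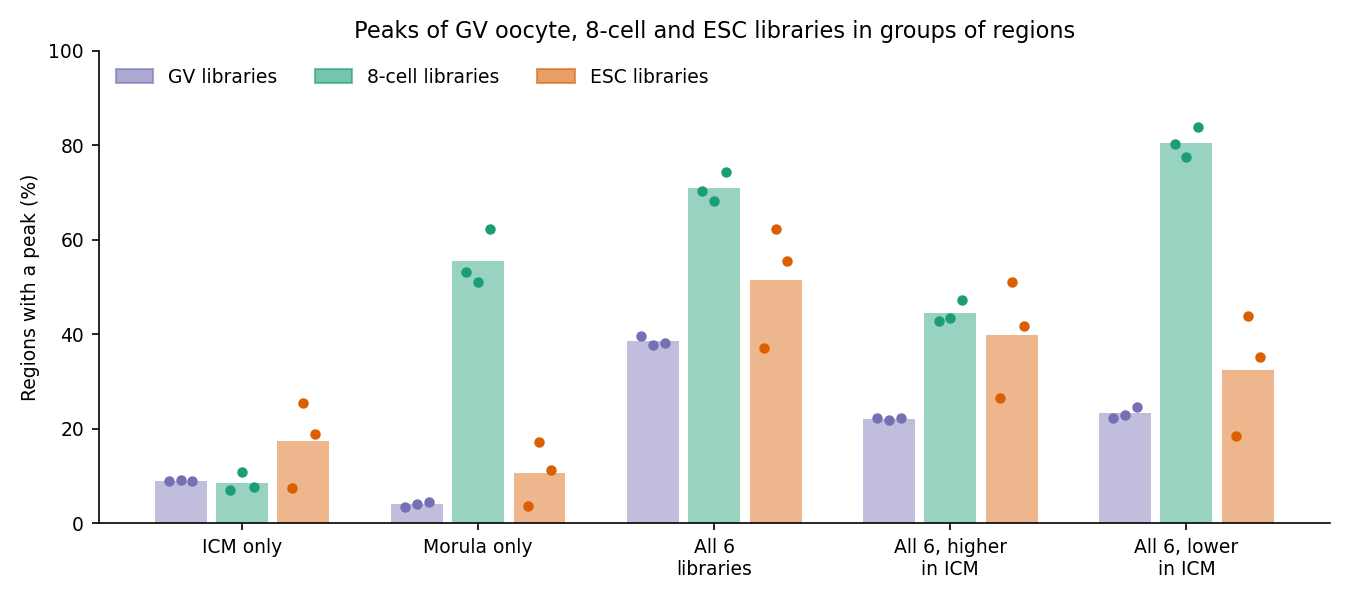
Percentage of regions with a peak in GV oocyte, 8-cell and ESC libraries, for ICM-only, morula-only and common regions and for common regions called higher or lower in ICMs. Bars are means and points the 3 libraries of each stage. 8-cell peaks were found at 55.5% of morula-only and 8.49% of ICM-only regions.

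ICM-only regions lay closer to common regions than to each other. The median distance from one to the nearest other ICM-only region was 287 kb, and 3.95% had one within 10 kb. The nearest common region was 14.7 kb away at the median, and 36.0% of ICM-only regions had one within 10 kb, compared with 26.4% of morula-only regions and 33.9% of common regions with another common region. Nearest distances shorten as a group grows, and no expectation was computed for them.

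By the Jaccard index, the lists of a stage resembled each other more than those of the other stage. The index, the shared length over the combined length of 2 lists, averaged 0.466 among morula libraries, 0.376 among ICM libraries and 0.263 between the stages, where the highest of the pairs reached 0.290. Within-stage pairs exceeded between-stage pairs by 0.159 on average, and none of the 20 possible groupings of the libraries gave more (exact permutation p = 0.1). It was 0.158 in equal lists. The overlap coefficient, the shared length over that of the shorter list, averaged 0.765 among morula libraries, 0.640 among ICM libraries and 0.613 between the stages, and its pairs overlapped. ICM replicate 1 had 0.780 with morula replicate 2 and 0.560 with ICM replicate 2.

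Accessible sequence was not spread over the chromosomes in the same way. The X chromosome held 3.19%, 3.28% and 3.16% of the covered length in morulae and 2.41%, 3.01% and 2.56% in ICMs. Each ICM library was below each morula library (exact permutation p = 0.1), although in equal lists the 2 stages overlapped (difference -0.36 points, exact permutation p = 0.3). Enrichment on X at the 1238 common X regions, relative to that at autosomal common regions, was 1.04 ± 0.0419 in morulae and 1.03 ± 0.0317 in ICMs and overlapped (exact permutation p = 0.8). X regions made up 3.85% of morula-only and 1.51% of ICM-only regions, against 2.82% of common regions, and these shares were not tested.

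Sequences not placed on a chromosome showed the opposite. They held 0.472%, 0.489% and 0.478% of the covered length in morulae and 0.832%, 1.11% and 0.951% in ICMs, 2.01 times as much on average and without overlap (exact permutation p = 0.1), in equal lists as well. In numbers of peaks they had 631, 992 and 806 in morulae and 613, 858 and 867 in ICMs, so the counts on these sequences overlapped between the stages while those of the whole lists did not. ICM peaks were spread over 248, 304 and 281 unplaced sequences and morula peaks over 183, 219 and 206. Reads on such sequences can be shared among near-identical copies, so single positions there are uncertain.

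Over the 29 autosomes, X and the unplaced sequences, shares did not overlap between the stages for 12 of 31, or 38.7%, and after Benjamini-Hochberg adjustment the exact permutation p was 0.258 for each of these. Shares were higher in ICMs for chromosomes 5, 7, 10, 16, 18 and 22 and the unplaced sequences, and lower for 2, 12, 20, 27 and X. Without ICM replicate 2 the number without overlap was 21. Among autosomes chromosome 18 had the largest increase of these, from 3.00% to 3.50%, and chromosome 27 the largest proportional decrease, to 0.873 times the morula share.

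**Figure D5:**
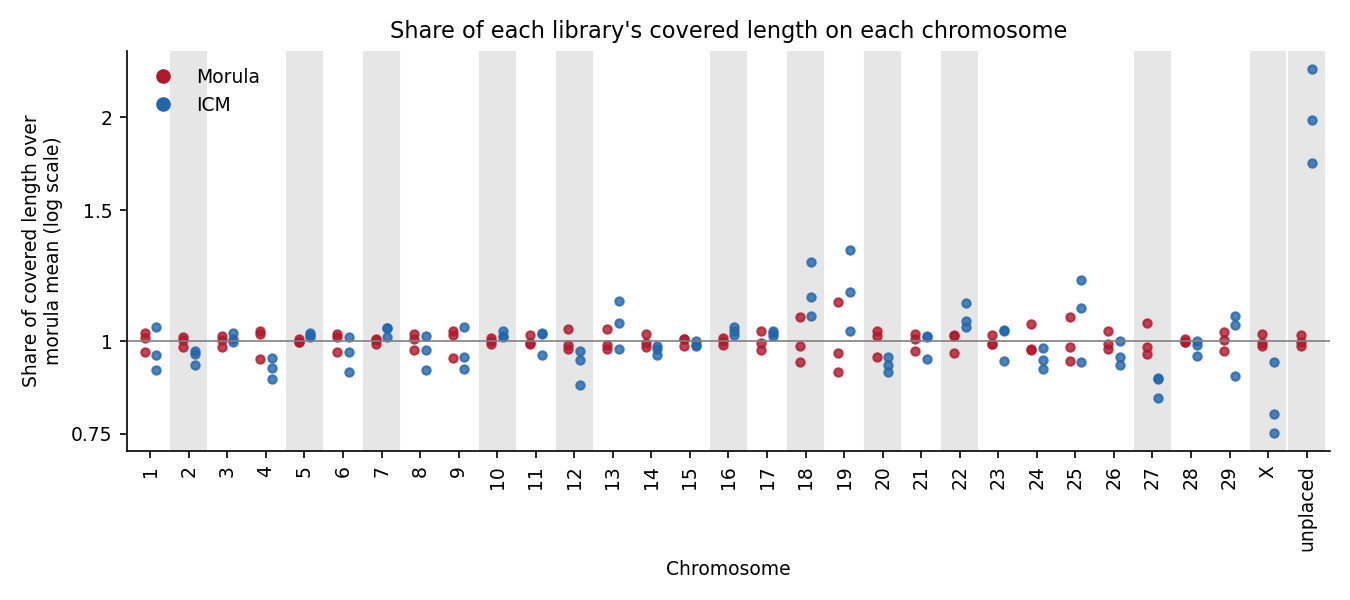
Share of the covered length of each library on each chromosome, divided by the mean share of the 3 morula libraries, on a log scale. Points are libraries, red for morula and blue for ICM, and grey bands mark the 12 sequences where the 2 stages did not overlap. ICM libraries lie lowest on X, at 0.830 times the morula share on average, and highest on unplaced sequences, at 2.01 times.

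Some stretches of the genome lost nearly all of their peaks. In windows of 1 Mb with a mean covered length of at least 5 kb, peaks being assigned by their middle, the share of the covered length did not overlap between the stages in 39.6% of the 2617 windows, higher in ICMs in 387 and lower in 649. The largest decrease was on chromosome 12 from 4000001 to 5000000 (ARS-UCD1.2), where peaks covered 12.7, 18.3 and 15.4 kb in morula replicates 1, 2 and 3 and 0.885, 1.85 and 0.863 kb in ICM replicates 1, 2 and 3. Of the 5 largest decreases 3 were on X, at 54000001 to 55000000, 82000001 to 83000000 and 6000001 to 7000000. In the first of these the covered length was 12.2, 14.2 and 9.76 kb in morulae and 0.512, 1.76 and 1.36 kb in ICMs. An X window, at 28000001 to 29000000, was also among the 5 largest increases. The share of X among all windows was not computed, so no concentration on X can be read from this ranking. The windows were ranked after their values had been computed and were not tested singly.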

How the data were processed

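Peak lists were those the authors deposited for single replicates. According to the submitters' processing notes and the study's methods, reads of 40 bp were trimmed with Trim Galore, aligned to ARS-UCD1.2 with BWA 0.7.17, cleared of duplicate, mitochondrial and low-quality alignments with PicardTools and SAMtools 1.7, and broad peaks were called with MACS2 2.1.1 at a q value of 0.05, with tags shifted by 100 bp and extended to 200 bp. The study itself pooled the replicates and subsampled their reads for its peak sets, which cannot be repeated from lists, so deeper libraries can have longer lists. The deposited fold enrichment is a ratio, computed with the authors' peak caller as the mean over a peak of its tags relative to those expected nearby. The caller adds the same constant to both parts of the ratio, so the values are not plain ratios of tags. The deposited −log10 p and −log10 q were averaged over the peak in the same way.

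Lists were compared with Python 3.11.15, numpy 2.4.6, pandas 2.3.3 and scipy 1.17.1. Values per library were compared by enumerating every regrouping of the libraries (exact permutation test, two-sided, on means). A region counted as having a peak with at least 1 bp in common. Fold enrichment at a region was the mean of its peaks weighted by overlap, and log2 values were tested with limma 3.58.1 in R 4.3.3 without a further pseudocount. For the background level, peaks were used whose values fit a whole number of tags to within 0.0001 in −log10 p. Interval functions, the background level and the limma fit were tested on simulated data. The named regions were the 5 of highest mean fold enrichment among ICM-only and among morula-only regions and the 5 largest differences in each direction among common regions called by limma, on named chromosomes. The comparisons, lists and rules were chosen with earlier results of these data known. Presence at other stages within held-out regions was examined after seeing the lists.

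The replicate numbers were not treated as pairs, since no source ties equal numbers of different stages together. Alternatives were lists without X and unplaced sequences, lists limited to a −log10 q or to a fold enrichment of at least 3, equal lists, leaving out libraries, a replicate block and others given in the closing section. No genome or annotation of ARS-UCD1.2 was at hand, so promoters, genic shares and motifs were not analysed here, and no sequences are shown for the same reason.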

Additional observations from a re-analysis of the deposited data

How the results depend on the processing

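Ratios below are ICM over morula and differences ICM minus morula. Numbers of peaks, fold enrichment at common regions, the share on unplaced sequences, the loss of held-out morula regions and its difference by GV and by ESC region kept their direction and the separation of libraries under every alternative run for them. The separation by GV and by ESC region is subject to the ceiling in held-out morula libraries described above. The mean difference in similarity of lists kept its sign, with 0.0895 for the overlap coefficient, whose pairs overlapped. Equal lists changed most other results. Under them the ratio was 0.839 for covered length and 0.943 for the gap, and the difference was -0.045 points for peaks within 5 kb of the next and -0.36 points for X, all with overlap. Ratios over all peaks were 0.791 for fold enrichment, 0.659 for −log10 p and 0.543 for −log10 q, now without overlap. The share of held-out ICM regions without a morula peak exceeded that without an ICM peak by 16.4 points under equal lists and by 0.0284 points with a fold enrichment of at least 3. The added differences by region of another stage, chosen after seeing the data, came to -0.387 points (8-cell, morula regions), 11.6 (GV, ICM regions), 28.3 (8-cell, ICM regions) and 9.86 (ESC, ICM regions). With a −log10 q of at least 3, the 8-cell difference of ICM regions was 18.6 points, without overlap, and that of peaks within 5 kb was -9.64 points, with overlap. The cause of these changes was not tested, except that equal lists hold fewer morula peaks by construction.

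Counts moved with the definition. Gained regions numbered 8841 with a −log10 q of at least 3, 45327 from peaks of any replicate, 9320 from those of all 3 and 27960 in equal lists, where 33202 were lost. Regions of 1 stage only, in equal lists, numbered 7818 for ICM and 11974 for morula. limma called 522 regions higher and 4004 lower without centring, 2854 higher on −log10 p, 607 and 610 with a −log10 q of at least 3, and 778 and 1058 in equal lists. The 10 named common regions kept their call in all 58 fits with other settings and all 60 with a library left out in which they could be tested. They had been chosen for the largest differences in these same data, so this was likely from the choice itself.

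Leaving out 1 library at a time gave ratios from 0.938 to 1.00 for median width, 0.93 to 0.989 for fold enrichment and 0.789 to 0.935 for −log10 q of all peaks. At common regions they were 0.663 to 0.836 for −log10 p, 0.546 to 0.762 for −log10 q and 0.689 to 0.824 for width. The share of peaks over 1 kb differed by -4.89 to -2.44 points, and 12 to 21 chromosomes did not overlap. ICM regions without a morula peak differed by -4.53 to 1.44 points, and their differences by stage ranged -1.74 to 3.51 points for GV and 8.64 to 17.4 points for 8-cell regions. Counts ranged from 5693 to 24747 gained, 57730 to 110470 lost, 2388 to 6456 ICM-only, 40916 to 57244 morula-only, 386 to 1731 higher and 573 to 1917 lower regions.

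Same-numbered libraries had correlations of deviations at common regions of -0.0438, -0.105 and 0.0316, and no source used states whether they shared a collection, so they were not treated as pairs. With a replicate block, all 3 differences had the same sign for peaks over 1 kb (-3.41 points), for −log10 p, −log10 q and width at common regions (ratios 0.753, 0.664 and 0.76), and for the 8-cell difference of ICM regions (12.6 points), with an exact sign-flip p of 0.25, the smallest possible. In limma the block gave 1338 higher and 1545 lower regions, and it changed no other call. No paired analysis was possible for gained, lost and single-stage regions, chromosome counts and list similarity because these are values over all libraries. Promoters, genic shares and motifs were not run. Depth was known only as a background level, and list length can vary with it.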

Other observations

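The increases among the 1 Mb windows were smaller. The largest was on chromosome 16 from 48000001 to 49000000, with 6.12, 11.1 and 13.9 kb covered in morulae and 7.65, 7.57 and 14.5 kb in ICMs, a log2 ratio of shares of 0.85. Its covered length in kb thus overlapped between the stages, while its share of each list did not.

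Chromosome ends took similar parts of the lists. The first 5 Mb of the autosomes and X held 4.67% ± 0.165 (SD, n = 3) of the covered length on these chromosomes in morulae and 4.94% ± 0.104 in ICMs. The last 5 Mb held 6.76% ± 0.347 and 7.04% ± 0.802. Both overlapped between the stages (exact permutation p = 0.2 and p = 0.6).

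The widest peak was at the same place in all 6 lists, on chromosome 27 from about 6219560 to 6225749. It was 6136 to 6211 bp wide with a fold enrichment of 1.74 to 1.92.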
